A study of Mus musculus with 6 samples.

Results

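The sinusoidal endothelial genes examined here are Stab1, Stab2, Lyve1, Clec4g, Fcgr2b, Oit3, Kdr, Pecam1, Cdh5 and Gpr182, 10 of the 22180 genes that the array's annotation names by a single symbol. They were chosen by symbol, and each has 1 probe set, which carries its value. Total RNA from whole liver was hybridized to Affymetrix arrays, 1 array per mouse, for 3 Balb/cBy and 3 Balb/c mice. Balb/cBy is a substrain of Balb/c, and the series calls it KD and Balb/c WT. The labels name no targeted gene, although a spontaneous deletion in Acads is a known feature of Balb/cBy mice; Acads is a gene of mitochondrial fatty acid oxidation. All mice of both groups were male and 20 weeks old, and had eaten a diet with 58% of energy from fat for 12 weeks from 8 weeks of age. No group on a standard diet was part of the comparison, so the data speak to the substrain on this diet alone.

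Liver sinusoids are lined by a specialised endothelium whose cells have open pores and no ordinary basement membrane, so that plasma reaches the hepatocytes directly. These cells clear waste molecules and small immune complexes from blood with scavenger receptors, lectins and Fc receptors, and they send Wnt and BMP signals to hepatocytes. In chronic injury and fatty liver disease they can lose their pores and their clearance receptors and take on features of ordinary capillaries. In whole liver RNA the genes stand for a minority cell type, and fewer sinusoidal cells cannot be told apart from less RNA per cell.

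The 6 arrays were alike, with Pearson correlations across genes from 0.977 to 0.991 and medians from 7.98 to 8.03 on the log2 scale. Balb/cBy replicate 1 had the lowest array weight in limma, 0.471, followed by Balb/c replicate 3 at 0.635. The highest weights were 2.47 for Balb/cBy replicate 3 and 2.04 for Balb/c replicate 1. All 10 sinusoidal genes averaged at least 9.01, above 8.02, the 95th percentile of the mean levels of 1105 olfactory receptor genes, which served as a stand-in for background. The 10 hepatocyte genes listed for comparison, among them albumin, had mean levels of 13.29 to 13.43 on the Balb/cBy arrays and 13.32 to 13.33 on the Balb/c arrays.

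No sinusoidal endothelial gene passed the test between the substrains. Differences ran from -0.30 for Fcgr2b to 0.30 for Lyve1, and the adjusted p was 0.999 for each of the 10 genes (limma, Benjamini-Hochberg over 23521 probe sets). Of the 10 genes, 6 were higher and 4 lower in Balb/cBy, with a median difference of 0.05, where 49.1% of all genes were higher, 50.9% were lower and the median was -0.003. Among all probe sets, 0 passed an adjusted p of 0.05 (limma), a background of 0%. An unadjusted p below 0.05 was found in 3.74% of genes, of which those with higher Balb/cBy values made up 2.59% of all genes and those with lower values 1.15%, and in 0 of the 10 sinusoidal genes. Array weights in limma called 31 probe sets, none of them of a sinusoidal gene. Every limma 95% interval of the 10 genes lay between -0.64 and 0.73, a Balb/cBy level of 0.641 to 1.65 times that of Balb/c. These intervals leave out a 2-fold difference in either direction, but smaller ones remain possible.

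**Figure D1:**
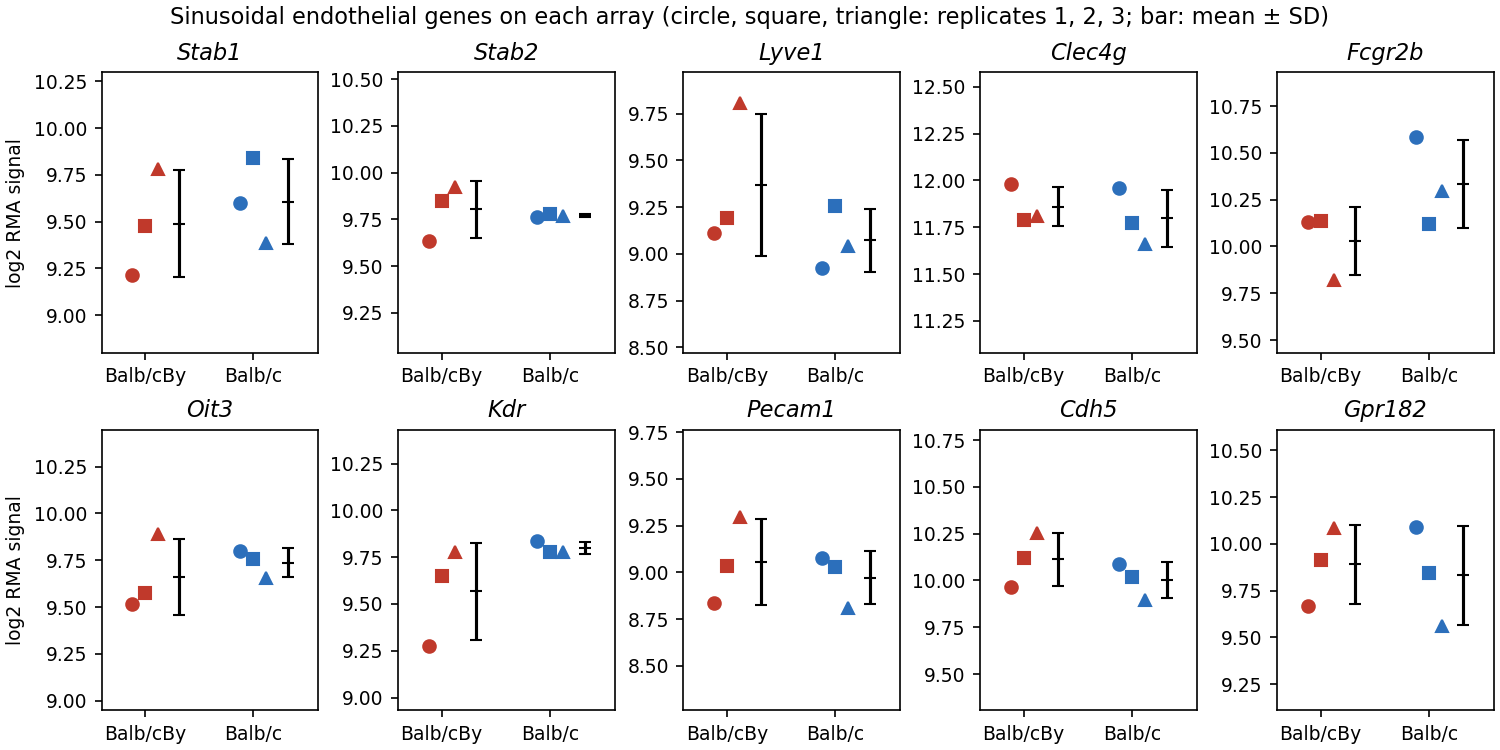
Log2 RMA signal of each of the 10 sinusoidal endothelial genes on every array, Balb/cBy (red) left of Balb/c (blue), with marker shape for the replicate and a bar for the mean ± SD (n = 3). The y axes differ in position but share their span. The groups overlap in 9 of the 10 genes.

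**Figure D2:**
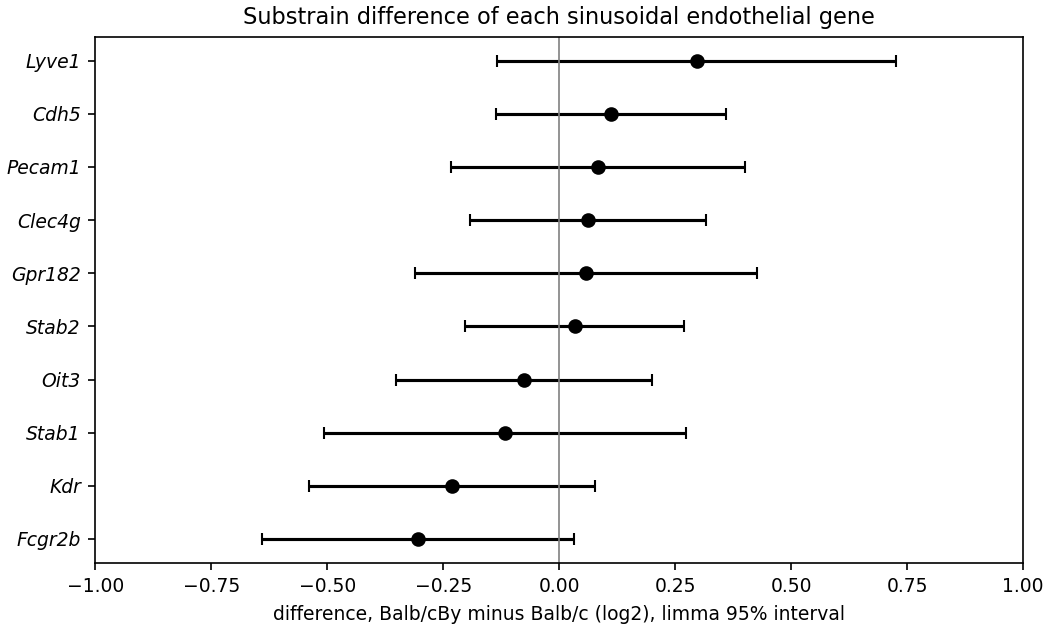
Log2 difference, Balb/cBy minus Balb/c (x axis) for each gene (y axis), with limma's 95% interval. All 10 intervals include 0, and the point estimates run from -0.30 for Fcgr2b to 0.30 for Lyve1.

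The scavenger receptors came first. Stab1, stabilin-1, which takes up modified lipoproteins and matrix fragments, read 9.21, 9.47 and 9.78 on the Balb/cBy arrays, against 9.60, 9.84 and 9.38 on the Balb/c arrays. Its groups overlapped, and the difference was -0.12 ± 0.17 (SE, 95% interval -0.51 to 0.27). Stab2, stabilin-2, the main clearance receptor for hyaluronan, read 9.63, 9.85 and 9.92 on the Balb/cBy arrays, against 9.76, 9.78 and 9.77 on the Balb/c arrays. The 3 Balb/c values lay within 0.019 of each other and inside the Balb/cBy range of 0.291. The difference of Stab2 was 0.03 ± 0.10 (SE, 95% interval -0.20 to 0.27), the narrowest interval of the 10 genes.

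Lyve1, a hyaluronan receptor of sinusoidal and lymphatic endothelium, had the most positive difference. It read 9.11, 9.19 and 9.80 on the Balb/cBy arrays, against 8.92, 9.25 and 9.04 on the Balb/c arrays. Balb/cBy replicate 3 stood above the other 5 arrays, which overlapped. The difference was 0.30 ± 0.19 (SE, 95% interval -0.13 to 0.73), and 0.08 without Balb/cBy replicate 3. Of 7 other measured genes of the lymphatic list, 4 lay above the olfactory receptor level, and the median difference of the 7 was -0.02. Prox1, a lymphatic regulator that hepatocytes also express, differed by -0.23 ± 0.24 (SE), Pdpn, podoplanin, by -0.07 ± 0.10 (SE), and Reln, a secreted glycoprotein that stellate cells make too, by 0.36 ± 0.21 (SE).

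The lectin and Fc receptor genes followed. Clec4g, a C-type lectin of sinusoidal endothelium, read 11.98, 11.79 and 11.81 on the Balb/cBy arrays, against 11.96, 11.77 and 11.66 on the Balb/c arrays. The groups overlapped, with a difference of 0.06 ± 0.11 (SE, 95% interval -0.19 to 0.32). Fcgr2b, the inhibitory Fc receptor that sinusoidal cells use to clear small immune complexes, read 10.13, 10.14 and 9.82 on the Balb/cBy arrays, against 10.58, 10.12 and 10.30 on the Balb/c arrays. Its groups overlapped through Balb/c replicate 2. Fcgr2b differed by -0.30 ± 0.15 (SE, 95% interval -0.64 to 0.03), with the smallest unadjusted limma p of the 10 genes, 0.0696. It was -0.18 without Balb/c replicate 1 and -0.20 without Balb/cBy replicate 3. B cells and macrophages carry Fcgr2b as well. The 7 measured B cell genes were all lower in Balb/cBy (median -0.08), and their mean level was 7.33 to 7.47 on the Balb/cBy arrays, against 7.44 to 7.60 on the Balb/c arrays. With renewed quantile normalization 5 of the 7 were lower, as were 4 without Balb/c replicate 2 and 4 without Balb/cBy replicate 3. Only 3 of the 7 lay above the olfactory receptor level. Cd79b, a subunit of the B cell receptor, differed by -0.27 ± 0.10 (SE) and Ms4a1, which encodes CD20, by -0.27 ± 0.09 (SE); neither passed over all genes. Ms4a1 was under the olfactory receptor level in both groups and Cd79b in Balb/cBy, so these differences are measured against values that may not be told from background. The part of B cells in the value of Fcgr2b was not tested.

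Kdr, the main signalling receptor for VEGF-A, was the single gene of the 10 whose groups did not overlap, which 7.83% of all genes share. It read 9.28, 9.65 and 9.78 on the Balb/cBy arrays, against 9.84, 9.78 and 9.78 on the Balb/c arrays. The nearest values of the 2 groups were equal to 2 decimals, and Balb/cBy replicate 1 stood well below the other arrays. The difference was -0.23 ± 0.13 (SE, 95% interval -0.54 to 0.08), with an exact two-sided permutation p of 0.1, the smallest that 3 against 3 arrays allow. Without Balb/cBy replicate 1 it was -0.09. The adhesion and junction genes overlapped between the groups. Pecam1, an adhesion molecule of endothelium, platelets and some leukocytes, read 8.83, 9.04 and 9.30 on the Balb/cBy arrays, against 9.08, 9.03 and 8.81 on the Balb/c arrays. Cdh5, VE-cadherin of endothelial junctions, read 9.97, 10.12 and 10.25 on the Balb/cBy arrays, against 10.09, 10.02 and 9.90 on the Balb/c arrays. The differences were 0.08 ± 0.14 for Pecam1 and 0.11 ± 0.11 for Cdh5 (SE).

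The remaining genes were Gpr182 and Oit3. Gpr182, an atypical chemokine receptor of endothelium, read 9.67, 9.92 and 10.09 on the Balb/cBy arrays, against 10.09, 9.85 and 9.56 on the Balb/c arrays, and the groups covered nearly the same range. Its difference was 0.06 ± 0.16 (SE). Oit3, a secreted zona pellucida domain protein, read 9.52, 9.57 and 9.89 on the Balb/cBy arrays, against 9.80, 9.76 and 9.65 on the Balb/c arrays. The Balb/c values lay between those of the Balb/cBy arrays, and the difference was -0.08 ± 0.12 (SE).

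The mean level of the sinusoidal genes differed less between the substrains than between mice of 1 substrain. The mean of the 10 genes was 9.73, 9.87 and 10.04 on the Balb/cBy arrays, against 9.97, 9.92 and 9.78 on the Balb/c arrays. The group means were 9.88 ± 0.16 in Balb/cBy and 9.89 ± 0.10 in Balb/c (SD, n = 3 each), a difference of -0.008, while the Balb/cBy arrays spanned 0.311 and the Balb/c arrays 0.187. In single genes the range within a group exceeded the difference between the substrains in 10 of 10 on the Balb/cBy arrays, against 88.2% of all genes, and in 8 of 10 on the Balb/c arrays, against 86.7% of all genes, so the 10 genes were near the background in this. The exceptions on the Balb/c arrays were Stab2 and Kdr, whose Balb/c values lay within 0.019 and 0.057.

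Stab1, Stab2, Lyve1, Oit3, Kdr, Pecam1, Cdh5 and Gpr182 shared 1 pattern, noticed after their values were seen: among the Balb/cBy arrays they were lowest on replicate 1 and highest on replicate 3. The gap between these 2 arrays ran from 0.285 in Cdh5 to 0.695 in Lyve1. Of all genes 13.2% had this order. Clec4g and Fcgr2b did not share it, and both were lower on replicate 3 than on replicate 1. With renewed quantile normalization 4 of the 10 genes had the full order, against 16.5% of all genes, and the mean of the 10 genes on Balb/cBy replicate 2 was then 9.74. Replicate 1 was below replicate 3 in 8 of 10 genes under the deposited scale, renewed quantile normalization and median centring, against 44.1%, 48.1% and 53.4% of all genes. On the Balb/c side, 7 of the 10 genes were lowest on replicate 3, against 39.5% of all genes.

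Genes of other liver cell types also varied over the same arrays. The mean of the 12 Kupffer cell genes was 9.36, 9.65 and 9.78 on the Balb/cBy arrays, against 9.69, 9.88 and 9.17 on the Balb/c arrays, and 9 of them had the same Balb/cBy order. Of the 12 stellate cell genes 8 had it, and of the 23 pan-endothelial genes 12. It was found in 10 of 20 further genes of sinusoidal endothelium. Genes of ordinary vessels and capillarised sinusoids had it in 8 of 17, and ligands and receptors that act on this endothelium in 10 of 25. Among the 10 hepatocyte genes 5 had it. It was present in 1 of 7 B cell genes, 2 of 7 platelet genes and 2 of 7 lymphatic genes. This order was picked after the values of the 10 members were seen, so their share cannot be ranked against those of the lists. The lists were not counted under renewed quantile normalization. On the deposited scale the arrays that were low in sinusoidal genes, Balb/cBy replicate 1 and Balb/c replicate 3, were those of lowest array weight. With renewed quantile normalization Balb/cBy replicate 2 had the lowest mean of the 10 genes, 9.74. Balb/c replicate 3 then had 9.79 and Balb/cBy replicate 1 had 9.82. The part of sampling or RNA quality in these array differences was not tested.

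**Figure D3:**
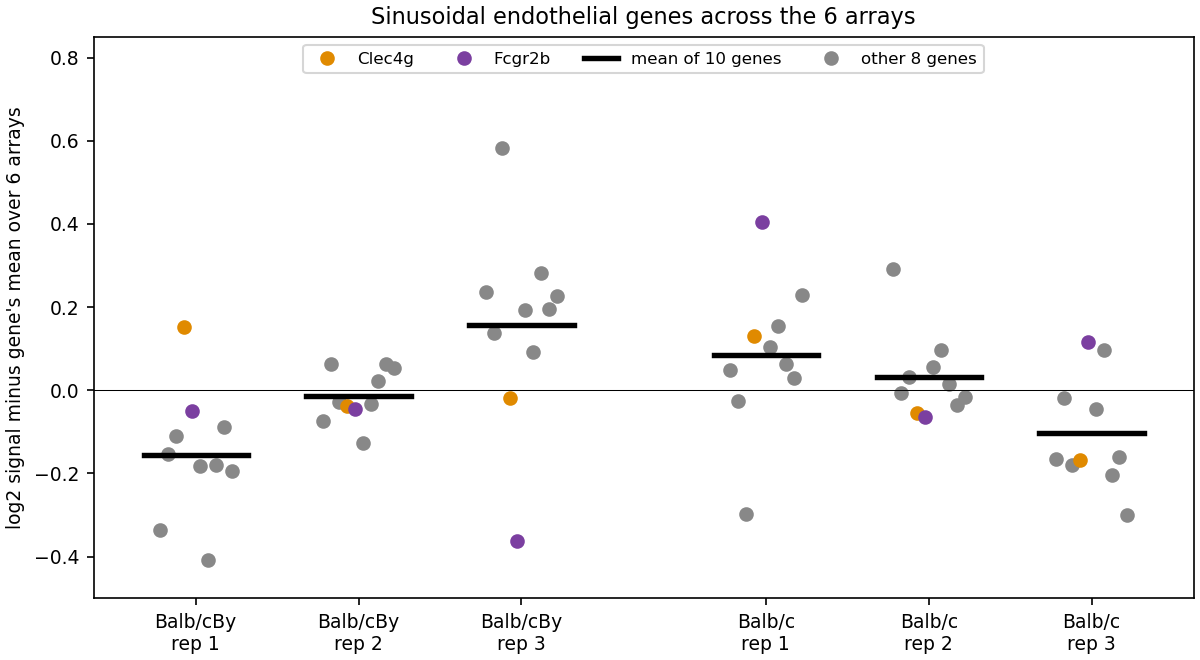
Log2 signal of each sinusoidal endothelial gene minus its own mean over the 6 arrays (y axis), by array (x axis), with black bars for the mean of the 10 genes. The grey genes lie lowest on Balb/cBy replicate 1 and highest on Balb/cBy replicate 3 among the Balb/cBy arrays, while Clec4g (orange) and Fcgr2b (purple) do not.

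The 5 genes outside the lists whose profile over the 6 arrays was most like the mean of the 10 were Stk10, Gata6, Myl9, Hmg20b and Otulinl, with Pearson r from 0.986 to 0.993, given as a description. Over the same 6 arrays 1.12% of all genes had an r above 0.9. Gata6, a GATA transcription factor, read 8.36, 8.67 and 9.05 on the Balb/cBy arrays, against 8.96, 8.82 and 8.42 on the Balb/c arrays. Myl9, a myosin light chain of contractile cells, read 8.40, 8.62 and 9.05 on the Balb/cBy arrays, against 8.94, 8.77 and 8.45 on the Balb/c arrays. Both were high on Balb/cBy replicate 3 and Balb/c replicate 1, and differed between the substrains by -0.04 and -0.03. Otulinl lay under the olfactory receptor level.

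Promoter sequence is shown for the 4 genes whose RefSeq window (GRCm38.p6) holds 150 bases just outside the annotated gene: Stab1 and Stab2, which shared the pattern over arrays, and Clec4g and Fcgr2b, which did not. All are read on the minus strand, 5′ to 3′, ending at the base before the gene. Capitals mark matches to AGGAAG or CGGAAG on either strand, forms of the core that ETS factors of endothelium bind.
Stab1, chr14:31168652-31168801: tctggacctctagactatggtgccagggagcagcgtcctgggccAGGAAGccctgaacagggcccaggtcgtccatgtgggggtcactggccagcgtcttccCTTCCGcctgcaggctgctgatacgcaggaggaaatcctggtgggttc
Stab2, chr10:87008039-87008188: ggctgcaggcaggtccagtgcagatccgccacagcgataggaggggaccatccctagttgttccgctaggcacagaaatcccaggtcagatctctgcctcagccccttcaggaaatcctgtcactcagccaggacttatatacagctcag
Clec4g, chr8:3720696-3720845: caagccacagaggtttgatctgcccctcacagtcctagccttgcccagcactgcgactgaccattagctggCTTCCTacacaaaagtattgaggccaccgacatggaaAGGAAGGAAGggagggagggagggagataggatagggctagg
Fcgr2b, chr1:170976072-170976221: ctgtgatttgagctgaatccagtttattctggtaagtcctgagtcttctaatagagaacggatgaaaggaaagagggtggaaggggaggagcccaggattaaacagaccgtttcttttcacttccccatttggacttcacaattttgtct

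Stab1 held 2 matches and Clec4g 3, of which 2 overlap, and the windows of Stab2 and Fcgr2b held 0. Among 13537 protein-coding genes 28.7% had a match in a window of this length. The GATA letters AGATAA were found in 0 of the 4 windows, against 5.27% of all windows. The pair of genes with the shared array pattern and the pair without it each had 1 window with an ETS match and 1 without. Only the listed forms were searched. The letters GGAA, which both ETS forms hold, also occur unmarked in the windows of Stab2 and Fcgr2b. The letters GATA, which AGATAA holds, occur unmarked in the windows of Stab1, Stab2 and Clec4g. So few genes cannot relate the matches to the array pattern.

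Further genes of sinusoidal endothelium also did not pass. Of 20 measured, 7 were higher and 13 lower in Balb/cBy, with a median of -0.04 and 0 past the adjusted or the unadjusted threshold in either direction (limma). Aqp1, the water channel, differed most, by -0.38 ± 0.22 (SE): it read 9.54, 10.14 and 10.44 on the Balb/cBy arrays, against 10.52, 10.58 and 10.16 on the Balb/c arrays, with Balb/cBy replicate 1 again lowest. Rspo3, a Wnt co-agonist that maintains the pericentral zone, differed by 0.19 ± 0.10 (SE), Maf, a transcription factor of sinusoidal cells, by -0.17 ± 0.11 (SE), and the lysosomal protease Ctsl by 0.19 ± 0.14 (SE). For Rspo3 alone of these 4 the groups did not overlap, as in 2 of the 20 genes, against 7.83% of all genes.

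Pan-endothelial genes gave a median of -0.01, with 11 higher and 12 lower of 23 measured. In limma 0 passed the adjusted threshold, and 1 higher and 1 lower gene had an unadjusted p below 0.05, against 3.74% of all genes. Emcn, the sialomucin endomucin, read 8.30, 8.67 and 8.58 on the Balb/cBy arrays, against 8.12, 7.68 and 8.09 on the Balb/c arrays. The groups did not overlap, as in 2 of the 23 genes and 7.83% of all genes, and the difference was 0.55 ± 0.15 (SE, adjusted p = 0.999, limma). The Balb/c mean of Emcn, 7.96, was under the olfactory receptor level of 8.02, so the size of this difference is uncertain. Cldn5, a tight junction claudin, went the other way at -0.35 ± 0.13 (SE), also without overlap. Its Balb/cBy values of 8.11, 8.04 and 8.01 were close to that level, with replicate 3 under it. The size of the Cldn5 difference is therefore uncertain too. Tal1, a transcription factor of blood and endothelium, differed by -0.16 ± 0.12 (SE) and the adhesion molecule Esam by 0.14 ± 0.12 (SE).

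Genes of ordinary vessels and capillarised sinusoids include markers of sinusoidal cells that turn into capillary endothelium. Their median was 0.04, with 12 of 17 measured genes higher. In limma 0 passed the adjusted threshold and 1, Cd9, the unadjusted one, which 3.74% of all genes passed. Cd9, a tetraspanin that leukocytes also carry, differed by 0.36 ± 0.11, the laminin chain Lamb1 by 0.24 ± 0.12, the chaperone Clu, which hepatocytes secrete, by 0.16 ± 0.09 and the venous factor Nr2f2 by -0.19 ± 0.13 (SE).

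Among ligands and receptors that act on this endothelium, 10 of 25 were higher and 15 lower in Balb/cBy, with a median of -0.02 and 0 past the adjusted threshold in limma. Both circulating ligands of the endothelial BMP receptor had an unadjusted p below 0.05 (limma), against 3.74% of all genes. Bmp10 read 8.13, 8.72 and 9.04 on the Balb/cBy arrays, against 8.28, 7.86 and 7.93 on the Balb/c arrays. Balb/cBy replicates 2 and 3 stood above all Balb/c arrays and replicate 1 did not, with a difference of 0.61 ± 0.22 (SE). The Balb/c mean of Bmp10, 8.02, was at the olfactory receptor level, and Balb/c replicates 2 and 3 were under it. The size of this difference is therefore uncertain. Gdf2, which encodes BMP9, read 9.24, 9.60 and 9.53 on the Balb/cBy arrays, against 9.38, 8.96 and 8.98 on the Balb/c arrays, a difference of 0.35 ± 0.15 (SE). Neither passed over all genes (adjusted p = 0.999 for both, limma). Hes1, a Notch target, differed by -0.21 ± 0.11 and Vegfb, a ligand of the VEGF family, by -0.16 ± 0.12 (SE).

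Stellate cells lie beside the sinusoidal endothelium and are a source of BMP9 and BMP10 in mouse liver. Of their listed genes 12 of 12 were higher in Balb/cBy (median 0.21), where 49.1% of all genes were higher. The list was chosen with earlier results of these data known, and it was not tested as a set. None of the 12 passed over all genes in limma, and 3 had an unadjusted p below 0.05, against 3.74% of all genes. The mean level of the 12 was 9.65, 9.89 and 10.05 on the Balb/cBy arrays, against 9.83, 9.49 and 9.45 on the Balb/c arrays, so the groups overlapped. In 2 of the 12 the groups did not overlap, against 7.83% of all genes. These were the matrix proteoglycans Lum, at 0.53 ± 0.12 (SE), and Dcn, at 0.48 ± 0.14 (SE). Rgs5, a pericyte regulator of G protein signals, at 0.52 ± 0.22 (SE), and Ecm1, at 0.44 ± 0.23 (SE), did overlap. The Balb/c mean of Lum, 7.91, was under the olfactory receptor level, so the size of its difference is uncertain. Hand2 differed by only 0.004 and Des by 0.02. With renewed quantile normalization 10 of the 12 were higher, and the median was 0.44 without Balb/c replicate 1 and 0.45 without Balb/cBy replicate 1. Without Balb/c replicate 3, 9 of the 12 were higher with a median of 0.19. Without Balb/cBy replicate 3, 10 of the 12 were higher with a median of 0.13.

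Kupffer cells, which share the sinusoid, had a median of 0.06, with 7 of 12 genes higher, but single arrays set this direction. Without Balb/c replicate 3 the median was -0.22 with 3 of 12 higher, and without Balb/c replicate 2 it was 0.21 with 10 of 12 higher. Omitting Balb/cBy replicate 3 gave -0.055, omitting Balb/cBy replicate 2 gave -0.0046, and omitting either first replicate gave 0.16 (Balb/cBy) and 0.11 (Balb/c). Vsig4, a complement receptor, differed by 0.41 ± 0.16, Adgre1, which encodes F4/80, by -0.37 ± 0.29, the scavenger receptor Marco by -0.24 ± 0.15 and C1qa by 0.13 ± 0.14 (SE). Marco was under the olfactory receptor level in both groups. Platelet genes, measured because platelets carry Pecam1, had a median of 0.09 with 5 of 7 higher, among them Gp9 at 0.27 ± 0.10, Itgb3 at 0.22 ± 0.13, Pf4 at 0.22 ± 0.14 and Itga2b at 0.09 ± 0.11 (SE). Pf4 was under that level in Balb/c. Hepatocyte genes had a median of 0.006 with 5 of 10 higher, and Serpina1a differed by 0.55 ± 0.21 (SE). None of the genes of these 3 lists passed over all genes in limma. An unadjusted p below 0.05 (limma) was found for Vsig4, Gp9 and Serpina1a, and in 3.74% of all genes.

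**Figure D4:**
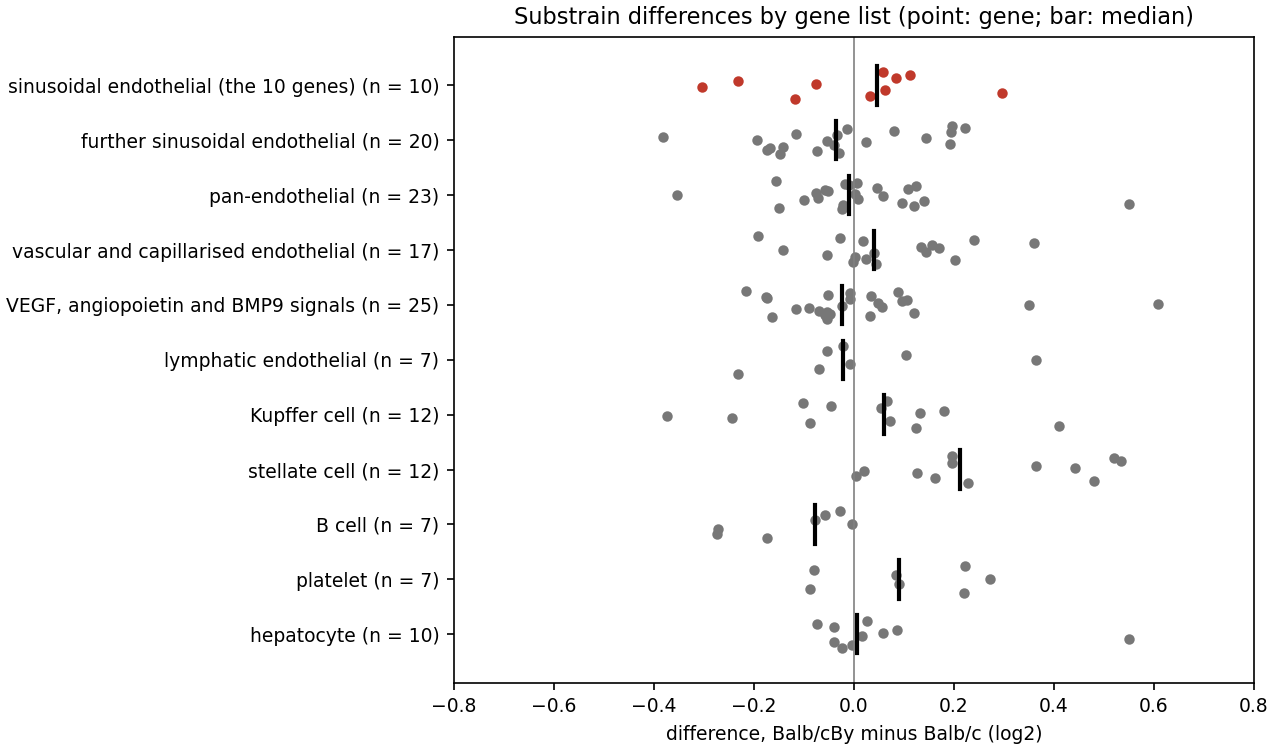
Log2 difference, Balb/cBy minus Balb/c (x axis) for every measured gene of each list (y axis), with a bar at the list's median. The 10 sinusoidal endothelial genes (red) lie between -0.30 and 0.30, and the 12 stellate cell genes all lie above 0. The lists were chosen with earlier results of these data known.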

How the data were processed

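Per the submitters' processing notes, the deposited values are log2 signals made with RMA, which corrects background, quantile-normalizes arrays and summarizes each probe set. The software version and genome build are not given in the sources used here. In all, the table held 41345 probe sets, of which 23521 had 1 gene symbol (22180 genes), 1814 several and 16010 no listing. The 23521 were fitted with limma 3.58.1 in R 4.3.3, with the substrain as single term and empirical Bayes moderation. Differences are Balb/cBy minus Balb/c, with the moderated SE, and p-values are two-sided, adjusted by Benjamini-Hochberg across the 23521 probe sets at a threshold of 0.05. The brightest probe set stands for a gene. The fit was tested on simulated data with 200 changed probe sets per fold size. Of these it called 0% at 1.5-fold, 78% at 2-fold and 96.5% at 4-fold. A failure to pass therefore says little about differences of 1.5-fold or less. The rates hold for 200 changed probe sets with independent noise, and the adjusted threshold depends on how many change. In the measured data 0 probe sets passed and the smallest adjusted p was 0.177 (limma). The rates at 2-fold and 4-fold may therefore not carry over to the members. The labels call the arrays biological replicates; their number limits the precision, and RMA compresses differences of dim genes. Apart from the olfactory receptor level, levels of different genes were not compared, since probes differ in brightness. For the same reason that level is only a rough guide to background for a single probe set.

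The members and the 10 other lists were chosen with earlier results of these data known, and no list was tested as a set. Named were the 10 members, up to 4 genes per other list with the smallest p, and the 5 genes most like the members' mean. Genes picked from a list for small p are likelier to have groups without overlap. In the lists for stellate and other cells the level is the mean over the measured genes. Rasip1, Ly6a, Figf, Ccl21a and Gp1bb had no probe set with their symbol alone. Replicate numbers are shared between groups, but deviations of arrays with the same number correlated at -0.32, -0.19 and -0.23, so they were not treated as pairs.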

Additional observations from a re-analysis of the deposited data

How the results depend on the processing

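Over all settings none of the 10 sinusoidal genes passed, and the smallest adjusted p was 0.519, for Fcgr2b. Fcgr2b, Kdr, Lyve1 and Cdh5 kept their sign in every setting, though with array weights Lyve1 was 0.56, Fcgr2b -0.50 and Kdr -0.13. The weighted values rest mainly on Balb/cBy replicate 3 and Balb/c replicate 1, the arrays of highest weight. Lyve1 was highest on the former and lowest on the latter of the 6 arrays, and Fcgr2b the reverse. Omitting 1 array gave 0.078 to 0.43 for Lyve1, -0.41 to -0.18 for Fcgr2b, -0.34 to -0.085 for Kdr and 0.043 to 0.19 for Cdh5. Unadjusted p-values under 0.05 (limma) were found for Lyve1 (0.0133) and Fcgr2b (0.00706) with array weights, for Fcgr2b (0.0238) and Kdr (0.0250) with renewed quantile normalization, for Fcgr2b without Balb/c replicate 2 (0.0273) and for Kdr without Balb/cBy replicate 3 (0.0452). Small differences turned sign: with array weights Stab1 was 0.030, Clec4g -0.035 and Oit3 0.012, and with renewed quantile normalization Stab2 was -0.034, Clec4g -0.0094 and Gpr182 -0.0068. Without Balb/cBy replicate 1 and Balb/c replicate 3 together, a setting chosen after seeing the data, Clec4g was -0.067, and 5 of the 10 genes were higher. With 1 array left out at a time, Stab1 ran from -0.26 to 0.022, Stab2 from -0.028 to 0.12, Clec4g from -0.0067 to 0.14, Pecam1 from -0.036 to 0.19 and Gpr182 from -0.078 to 0.19. The members' median ran from -0.04 to 0.08, and was -0.02 with renewed quantile normalization, where 3 of 10 were higher. Over the whole table, array weights called 31 probe sets and single omissions 0 to 4. There were 4 when Balb/cBy replicate 1 was omitted, 2 when Balb/c replicate 3 was, and 16 with both omitted; no member was among them. With the replicate block 0 probe sets passed and no call changed. Left-out arrays moved the medians of Kupffer cell genes (-0.22 to 0.21), stellate genes (0.13 to 0.45), B cell genes (-0.18 to -0.067), platelet genes (0.090 to 0.18) and lymphatic genes (-0.037 to 0.032, and -0.060 with both omitted). Limiting the fit to probe sets brighter than the median gave the list of ordinary vessels a median of 0.13, over 13 genes. The causes were not tested.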
